A study of Arabidopsis thaliana with 12 samples.

Results

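The 10 genes described here act in salicylic acid synthesis and signalling, and their RNA was measured in whole 2-week-old Arabidopsis thaliana plants. They are ICS1, EDS5, PBS3, CBP60G, SARD1, EDS1, PAD4, NPR1, NPR3 and NPR4, taken by their locus codes as a pathway set. All 10 are among the 33602 genes of the count table and among the 20651 genes tested. Messenger RNA was sequenced from 4 groups of 3 libraries, which the series design calls biological replicates, and all plants grew in soil. The groups are Col-0, the reference accession, in regular soil (control), Col-0 in soil with YC4-R4, the rdd triple mutant in the Col-0 background in regular soil, and rdd in soil with YC4-R4. The title speaks of active DNA demethylation and of beneficial rhizobacteria, and rdd is known to combine mutations in ROS1, DML2 and DML3, which encode DNA demethylases. The labels name no alleles, and do not say whether a library pooled plants. A level is in CPM, a gene's count relative to the library's total after TMM scaling, with its SD (n = 3 libraries). A log2 fold change is given with its standard error.

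The libraries held 14465710 to 20281801 counts, of which the 10 genes took 3607 to 7168. Of the 3 mutated genes, 1 was lower in the libraries labelled rdd in control soil and 0 in YC4-R4 soil (edgeR, adjusted p under 0.05). Of all tested genes 23.0% and 14.4% were lower there. ROS1 stood at 82.0 ± 3.94 CPM in Col-0 control and 79.9 ± 2.23 CPM in the libraries labelled rdd control (log2 -0.04 ± 0.05; edgeR, adjusted p = 0.521). DML2 differed by 0.05 ± 0.08 (edgeR, adjusted p = 0.665). The libraries labelled rdd control had less DML3, at 3.52 ± 0.14 against 4.97 ± 0.79 CPM (log2 -0.50 ± 0.20; edgeR, adjusted p = 0.0431). With YC4-R4 DML3 was at 0.775 ± 0.40 CPM in Col-0 and 0.599 ± 0.34 CPM in rdd. ROS1 was there at 69.6 ± 1.58 CPM in Col-0 and 74.5 ± 1.68 CPM in rdd, and DML2 at 13.0 ± 1.38 and 13.5 ± 0.43 CPM. Mutations such as insertions can leave part of a transcript, so these counts do not test the genotype, and directions are given between libraries as labelled. The 4 leaf markers summed to between 20278 and 27544 CPM, the 5 root markers to between 954 and 1177 CPM, most of it from PYK10, and the 3 floral organ markers to 1.31 CPM at most. In control soil PYK10 was lower in rdd, at -0.28 ± 0.03 (edgeR, adjusted p = 4.1e-09). The other 4 root markers, CASP1, COBL9, MRN1 and IRT1, were higher, by 0.27 to 1.09 on the log2 scale, and all 4 leaf markers were lower, from -0.55 to -0.27. Of all tested genes 20.9% were higher and 23.0% lower in that comparison. The part of root and leaf markers in the levels of the 10 genes was not tested. The libraries of rdd YC4-R4 spread more than the others, with a biological coefficient of variation of 5.84% against 2.57% to 3.22%. In RNA from whole plants, fewer cells that express a gene and less RNA per cell cannot be told apart.

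Salicylic acid is the plant hormone of defence against pathogens that feed on living tissue. In Arabidopsis most of the salicylic acid made after infection comes from chorismate in the chloroplast. ICS1 turns chorismate into isochorismate, EDS5 carries isochorismate out of the chloroplast, and PBS3 joins it to glutamate, after which the product breaks down to salicylic acid. CBP60G and SARD1 are related transcription factors that bind the ICS1 promoter and activate it, and CBP60G also binds calmodulin. EDS1 and PAD4 form a complex that relays signals from immune receptors and promotes salicylic acid accumulation. NPR1, NPR3 and NPR4 bind salicylic acid. NPR1 is a co-activator that works with TGA transcription factors, and NPR3 and NPR4 act as co-repressors of defence genes.

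The start regions of 3 of the genes are shown because the results turn on them. CBP60G and SARD1 were the pair that moved together, and ICS1 is the gene they are known to control. Each run of 300 bases covers 250 bases before and 50 bases after the gene start annotated by RefSeq in TAIR10.1, 5′ to 3′ along the gene. Capitals mark matches on either strand to the W box core TTGAC, the TGA site core TGACG, the CBP60G and SARD1 motif GAAATTT or the CAMTA core CGCG. CBP60G lies on the plus strand at chr5:9475429-9475728, SARD1 on the minus strand at chr1:27749199-27749498 and ICS1 on the plus strand at chr1:28070045-28070344.
CBP60G: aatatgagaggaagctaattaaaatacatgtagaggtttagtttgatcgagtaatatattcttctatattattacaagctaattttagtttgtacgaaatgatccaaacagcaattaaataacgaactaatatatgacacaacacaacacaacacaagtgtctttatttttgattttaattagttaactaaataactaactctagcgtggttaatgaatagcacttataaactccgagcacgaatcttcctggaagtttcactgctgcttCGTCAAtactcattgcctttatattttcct
SARD1: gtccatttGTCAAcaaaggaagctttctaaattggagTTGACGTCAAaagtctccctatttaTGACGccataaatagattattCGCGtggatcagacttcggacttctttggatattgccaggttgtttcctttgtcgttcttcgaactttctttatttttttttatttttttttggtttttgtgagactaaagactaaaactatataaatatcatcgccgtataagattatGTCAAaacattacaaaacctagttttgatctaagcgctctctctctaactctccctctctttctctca
ICS1: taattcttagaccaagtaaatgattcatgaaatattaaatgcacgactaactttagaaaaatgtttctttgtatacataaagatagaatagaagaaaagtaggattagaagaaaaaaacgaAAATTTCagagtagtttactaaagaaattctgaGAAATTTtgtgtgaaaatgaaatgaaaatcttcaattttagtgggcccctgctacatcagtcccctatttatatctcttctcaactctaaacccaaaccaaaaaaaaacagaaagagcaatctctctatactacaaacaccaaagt

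In the ICS1 region GAAATTT occurred at 2 places, starting 129 and 96 bases before the gene start, the first on the opposite strand. It occurred in none of the other 9 regions examined, and in 14.2% of the regions of the same length at 27443 protein-coding genes. SARD1 held 4 matches to TTGAC and 3 to TGACG, and the sole CGCG among the 10 regions. Of these, 2 matches to TTGAC and 2 to TGACG overlap in a single run whose first base lies 213 bases before the start, and the others stand apart. CBP60G held 1 match to each of TTGAC and TGACG, overlapping each other just after the start. Over the 10 genes, 6 held TTGAC and 4 held TGACG, against 50.5% and 23.1% of all regions, and 13.0% of all regions held CGCG. A match describes letters in this window and not a bound site.

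**Figure D1:**
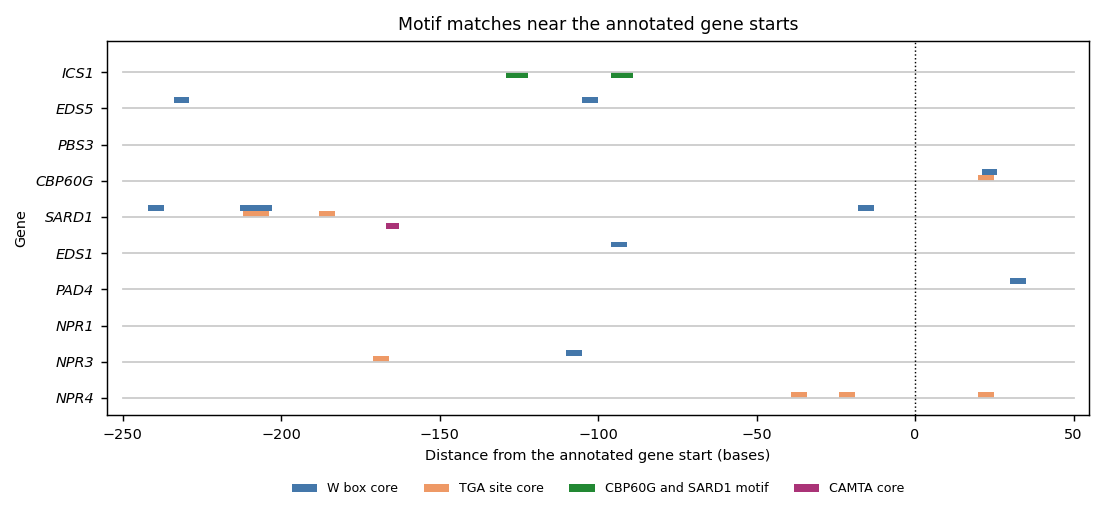
Matches to 4 short motifs around the annotated start of each gene, by distance from the start in bases, where coloured bars are matches on either strand and the dotted line is the start. ICS1 holds 2 matches to the CBP60G and SARD1 motif, and SARD1 holds 4 W box cores.

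The 5 comparisons each ran across all 20651 tested genes, and called means an edgeR adjusted p (Benjamini-Hochberg) under 0.05. With YC4-R4 in Col-0, 4 of the 10 genes were called, all lower, where 29.8% of all tested genes were called, 16.9% lower and 12.9% higher. With YC4-R4 in rdd, 7 were called, 4 lower and 3 higher, where 32.2% of all genes were called, 17.1% lower and 15.1% higher. The higher count fell from 3 to 1 without replicate 1 of rdd control, and also without replicate 2 of rdd with YC4-R4. Between rdd and Col-0 in control soil 6 were called, all lower, where 43.9% of all genes were called, 23.0% lower and 20.9% higher. Between rdd and Col-0 in YC4-R4 soil 4 were called, all lower, where 28.7% of all genes were called, 14.4% lower and 14.3% higher. The effect of YC4-R4 differed between the genotypes for 6 of the 10, by the genotype by treatment interaction. It was higher for 4 and lower for 2, where 30.6% of all genes were called, 16.2% higher and 14.4% lower. The lower count fell from 2 to 1, by the loss of PAD4, with DESeq2 and in 4 fits that each left out a library, which are named with PAD4. The median log2 fold change of the 10 was -0.45 between rdd and Col-0 in control soil and -0.20 in YC4-R4 soil, where the median over all tested genes was 0.01 in both. In response to YC4-R4 it was -0.11 in Col-0 and -0.03 in rdd, against 0.00 over all tested genes in both.

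**Figure D2:**
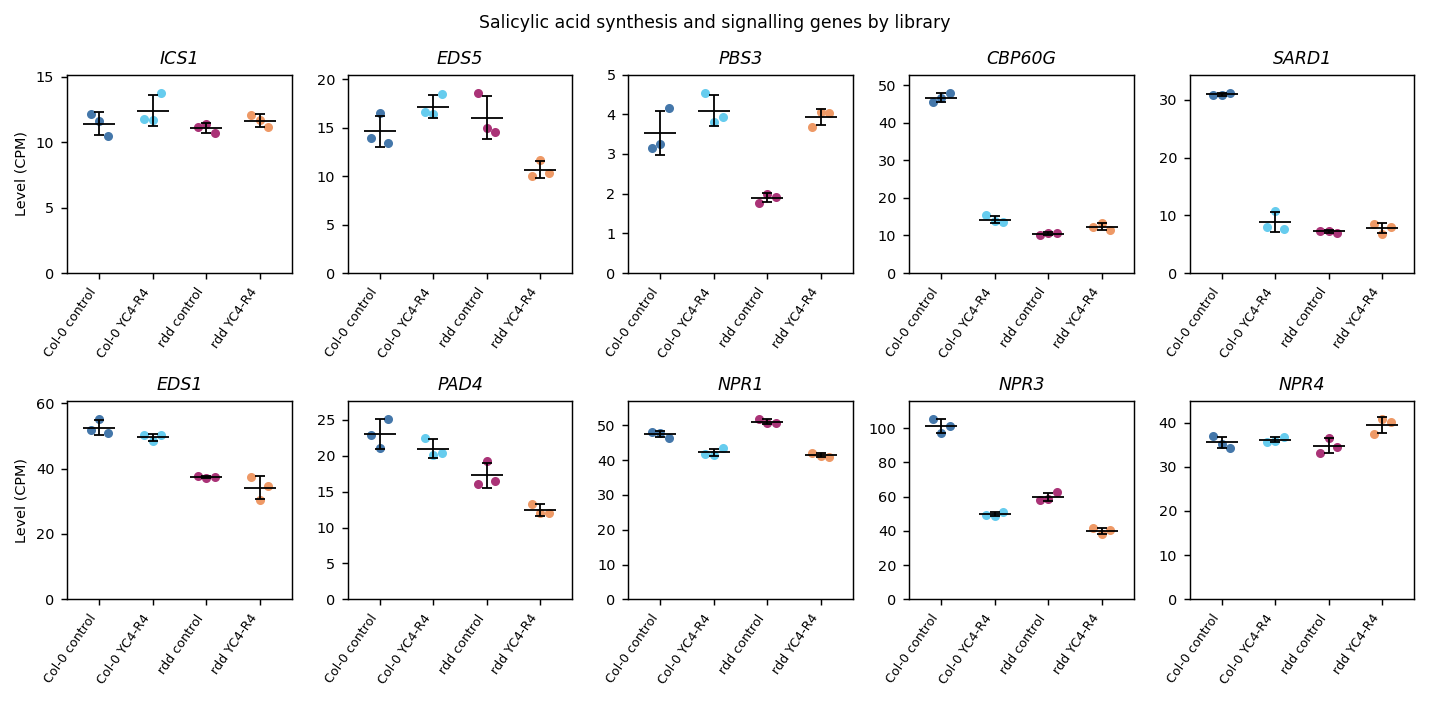
Level of each gene in CPM in every library by group, with points for libraries and bars for the mean and SD of 3 libraries. CBP60G and SARD1 stand far higher in Col-0 control than in the other 3 groups, while ICS1 stays between 10.4 and 13.8 CPM.

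The synthesis regulators CBP60G and SARD1 gave the widest differences among the 10. CBP60G (AT5G26920, chromosome 5, 9475679 to 9478777) stood at 45.5, 46.5 and 48.0 CPM in the Col-0 control libraries and at 15.3, 13.9 and 13.5 CPM in Col-0 with YC4-R4. It stood at 10.1, 10.8 and 10.7 CPM in rdd control and at 12.4, 13.2 and 11.5 CPM in rdd with YC4-R4. Col-0 control is high, the other 3 groups are low, and no neighbouring groups overlap. With YC4-R4 in Col-0 it fell by 1.71 ± 0.07 on the log2 scale, or 3.26-fold (edgeR, adjusted p = 5.3e-21). Between rdd and Col-0 in control soil it was lower by 4.42-fold, a log2 fold change of -2.15 ± 0.07 (edgeR, adjusted p = 1.5e-23). In rdd it was higher with YC4-R4 by 0.23 ± 0.09 (edgeR, adjusted p = 0.0439). Under DESeq2 that small difference was not called (adjusted p = 0.110), nor with a replicate block (edgeR, adjusted p = 0.0524), nor without any of 5 libraries. These were rdd control replicates 1, 2 and 3 and rdd YC4-R4 replicates 1 and 2 (edgeR, adjusted p = 0.123, 0.0679, 0.0730, 0.0782 and 0.178). Its range over all alternatives was 0.0259 to 0.178. In YC4-R4 soil, rdd and Col-0 differed by -0.21 ± 0.08 (edgeR, adjusted p = 0.0507).

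SARD1 (AT1G73805, chromosome 1, 27744790 to 27749248) followed nearly the same pattern. Its 3 Col-0 control libraries stood at 30.8, 30.9 and 31.3 CPM, and those of Col-0 with YC4-R4 at 8.02, 10.8 and 7.71 CPM. The rdd control libraries stood at 7.37, 7.34 and 6.99 CPM and those of rdd with YC4-R4 at 8.57, 6.84 and 7.93 CPM. Col-0 control is again alone at a high level, and among the other 3 groups each neighbour in the order of levels overlaps the next. With YC4-R4 in Col-0 SARD1 fell by 1.81 ± 0.09, or 3.52-fold (edgeR, adjusted p = 7.3e-18). Between rdd and Col-0 in control soil it was 4.28-fold lower, at -2.10 ± 0.10 (edgeR, adjusted p = 1.8e-19). With YC4-R4 in rdd the difference was 0.10 ± 0.12, with a 95% interval from -0.14 to 0.34 (edgeR, adjusted p = 0.557). Part of SARD1 overlaps the gene AT1G73790 on the opposite strand, by 441 bases of exon, and the strand setting of the counting is not given in the sources used here. AT1G73790 itself had 5.76 ± 0.90 CPM in Col-0 control and 6.03 ± 0.46, 6.38 ± 0.30 and 6.62 ± 0.63 CPM in the other groups, in the order used above.

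The YC4-R4 effect on both regulators differed between the genotypes by the interaction test. Subtracting the log2 effect in Col-0 from that in rdd gave 1.93 ± 0.11 for CBP60G and 1.92 ± 0.15 for SARD1 (edgeR, adjusted p = 2.9e-16 and 1.7e-12). The Pearson correlation of the log2 CPM of CBP60G and SARD1 was 0.98 over the 12 libraries, which describes libraries that fall into 4 groups, with 1 group apart.

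The summed level of a list of genes known to respond fast to touch or stress was highest in Col-0 control as well. The list holds 8 genes, among them the calmodulin-like TCH2 and TCH3 and the transcription factor genes WRKY33 and WRKY40. This list was chosen with earlier results of these data known, so the shares given beside it describe and do not test. The sum was 1888 to 1940 CPM in Col-0 control and 920 to 939 CPM in Col-0 with YC4-R4. It was 1096 to 1133 CPM in rdd control and 409 to 431 CPM in rdd with YC4-R4. Most of the sum came from TCH3 and TCH4, which in rdd control stood at 623 ± 17.8 and 244 ± 6.54 CPM. Single genes could differ from the sum, as WRKY33 and ERF1A did, picked out after their values were seen. In Col-0 control, Col-0 YC4-R4, rdd control and rdd YC4-R4, WRKY33 had means of 246, 29.5, 43.9 and 29.1 CPM. ERF1A had means of 41.5, 21.4, 40.4 and 17.8 CPM in the same order. In Col-0 all 8 listed genes fell with YC4-R4, by log2 fold changes from -3.07 to -0.46, where 16.9% of all tested genes were lower. In rdd all 8 fell as well, from -1.92 to -0.30, where 17.1% of all tested genes were lower. CBP60G was there at 0.23 and SARD1 at 0.10. In control soil 6 of the 8 were lower in rdd, from -2.48 to -1.09, where 23.0% of all tested genes were lower. ERF1A differed there by -0.04 ± 0.06 (edgeR, adjusted p = 0.684). TCH3 was higher in rdd control, at 623 ± 17.8 against 579 ± 18.6 CPM (log2 0.11 ± 0.04; edgeR, adjusted p = 0.0133). TCH3, singled out after its values were seen, was not called without Col-0 control replicate 1, rdd control replicate 1 or rdd control replicate 3 (edgeR, adjusted p = 0.0971, 0.0506 and 0.0736), in a range of 0.00281 to 0.0971. The leaf markers were also highest in Col-0 control, at a sum of 26114 to 27544 CPM against 20278 to 21943 CPM over the other 9 libraries. The part of either list in the level of the regulators was not tested.

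**Figure D3:**
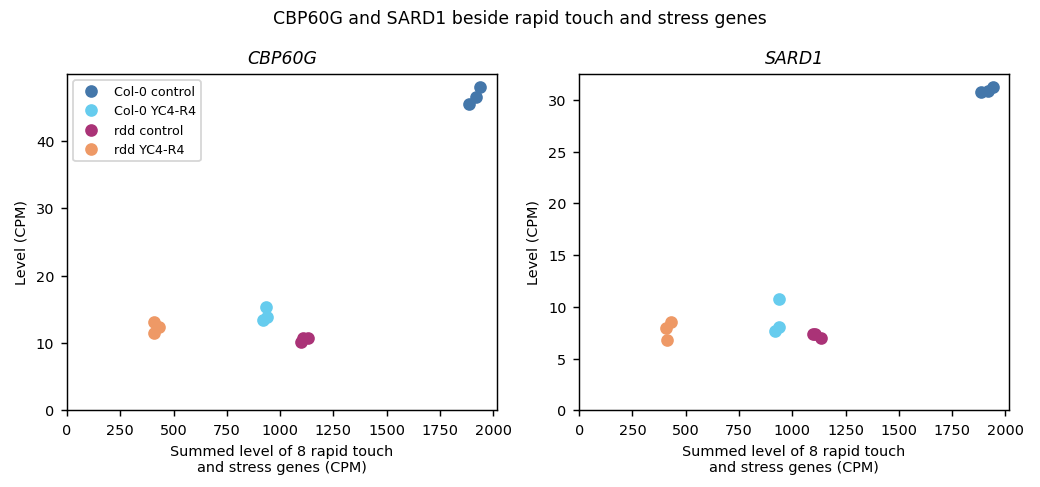
Level of CBP60G and of SARD1 (vertical axes, CPM) against the summed level of 8 rapid touch and stress genes (horizontal axes, CPM), 1 point per library. Most of the summed level comes from TCH3 and TCH4. The sum is lower in rdd YC4-R4 (409 to 431 CPM) than in rdd control (1096 to 1133 CPM). Both regulators stay near the level of the other low groups there.

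The 3 synthesis genes had other patterns than the regulators. ICS1 (AT1G74710, chromosome 1, 28070295 to 28074177) stood at 12.1, 11.6 and 10.4 CPM in Col-0 control and at 11.7, 11.7 and 13.8 CPM in Col-0 with YC4-R4. It stood at 11.2, 11.4 and 10.7 CPM in rdd control and at 12.1, 11.7 and 11.2 CPM in rdd with YC4-R4. All neighbouring groups overlap, and the highest group mean is 1.119 times the lowest. The log2 fold change with YC4-R4 was 0.11 in Col-0, with a 95% interval from -0.08 to 0.31, and 0.07 in rdd, from -0.13 to 0.26. Between rdd and Col-0 it was -0.04 in control soil, from -0.24 to 0.15, and -0.09 in YC4-R4 soil, from -0.28 to 0.10. None of these, nor the interaction at -0.05 ± 0.14, was called (edgeR, adjusted p from 0.403 to 0.845). At these levels ICS1 rests on 164 to 235 counts per library.

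EDS5 (AT4G39030, chromosome 4, 18185437 to 18189224), the isochorismate transporter, was low in 1 group. It stood at 14.0, 16.5 and 13.5 CPM in Col-0 control, 16.7, 16.4 and 18.5 CPM in Col-0 with YC4-R4, and 18.6, 14.95 and 14.5 CPM in rdd control. In rdd with YC4-R4 it stood at 10.001, 11.6 and 10.3 CPM. Only that last group is clear of the others, which overlap as neighbours. EDS5 fell with YC4-R4 in rdd by 0.58 ± 0.10 (edgeR, adjusted p = 2.0e-05) and differed by 0.23 ± 0.10 in Col-0 (edgeR, adjusted p = 0.0690). The latter was called when only the groups compared were fitted (edgeR, adjusted p = 0.0263) and without Col-0 control replicate 2 (0.0215), and over all alternatives its adjusted p ran from 0.0215 to 0.257. In YC4-R4 soil EDS5 was below Col-0 in rdd, at -0.69 ± 0.10 (edgeR, adjusted p = 1.1e-06). The interaction was -0.81 ± 0.14 (edgeR, adjusted p = 1.8e-05). EDS5 shares 213 bases of exon with AT4G39040 on the opposite strand, which stood higher, at 83.3 ± 3.85, 80.4 ± 1.31, 76.4 ± 2.86 and 86.4 ± 4.41 CPM in the 4 groups. AT4G39040 went the other way in rdd, at 0.17 ± 0.05 with YC4-R4 (edgeR, adjusted p = 0.00367).

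PBS3 (AT5G13320, chromosome 5, 4267456 to 4271064), which makes the glutamate conjugate, was low in a different group. It stood at 3.15, 3.25 and 4.17 CPM in Col-0 control and at 4.55, 3.81 and 3.92 CPM in Col-0 with YC4-R4. The rdd control libraries stood at 1.77, 1.99 and 1.93 CPM and those of rdd with YC4-R4 at 3.69, 4.06 and 4.04 CPM. Here rdd control is clear of the other groups, which overlap as neighbours. In rdd PBS3 rose 2.06-fold with YC4-R4, at 1.04 ± 0.18 (edgeR, adjusted p = 1.9e-05). In Col-0 the difference was 0.23 ± 0.16, with a 95% interval from -0.10 to 0.56 (edgeR, adjusted p = 0.309). In control soil it was below Col-0 in rdd, at -0.88 ± 0.19 (edgeR, adjusted p = 2.1e-04), and in YC4-R4 soil the genotypes differed by -0.06 ± 0.16 (edgeR, adjusted p = 0.810). The interaction was 0.81 ± 0.25 (edgeR, adjusted p = 0.0103). PBS3 is the least counted of the 10, with 26 to 89 counts per library.

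**Figure D4:**
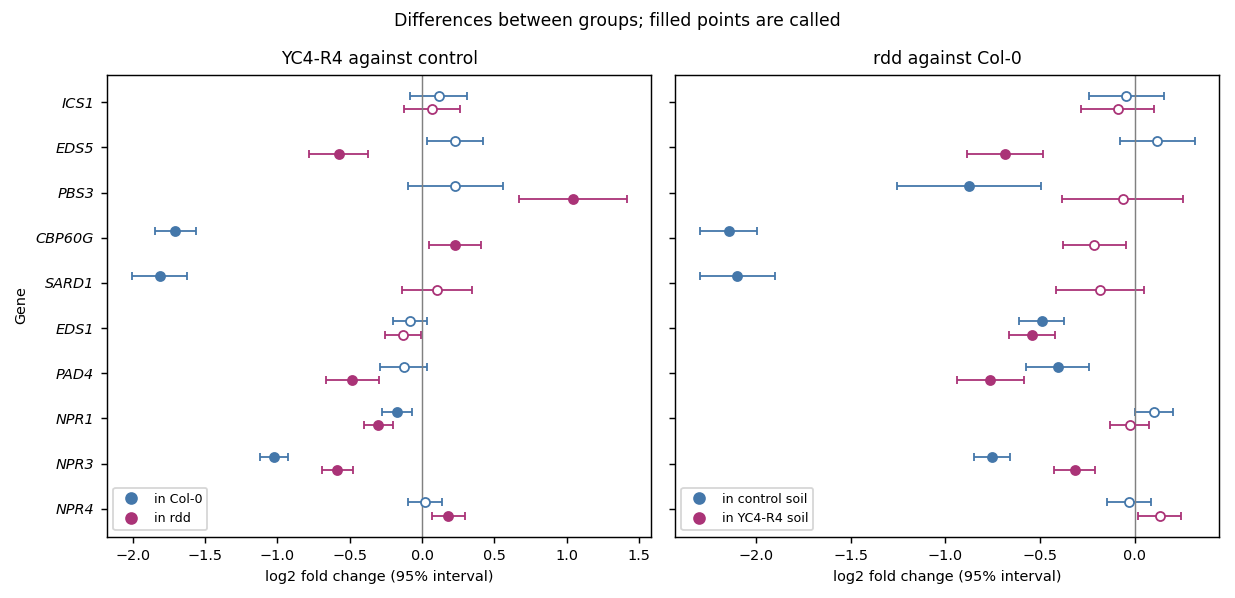
Log2 fold changes of the 10 genes with 95% intervals, for YC4-R4 against control (left) and rdd against Col-0 (right), with filled points where the gene was called. CBP60G and SARD1 are far to the left in Col-0 and in control soil alone, EDS1 and PAD4 are lower in rdd in both soils, and all ICS1 intervals include 0.

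EDS1 and PAD4, the partners of the EDS1 complex, were lower in rdd in both soils. EDS1 (AT3G48090, chromosome 3, 17755329 to 17758147) stood at 51.6, 55.2 and 50.7 CPM in Col-0 control and at 50.1, 48.4 and 50.3 CPM in Col-0 with YC4-R4. It stood at 37.6, 37.1 and 37.5 CPM in rdd control and at 37.5, 30.4 and 34.6 CPM in rdd with YC4-R4. All 6 rdd libraries lie below all 6 Col-0 libraries. The log2 difference of rdd from Col-0 was -0.49 ± 0.06 in control soil and -0.54 ± 0.06 in YC4-R4 soil (edgeR, adjusted p = 1.1e-08 and 3.8e-09). With YC4-R4 it differed by -0.08 ± 0.06 in Col-0 and -0.13 ± 0.06 in rdd (edgeR, adjusted p = 0.296 and 0.0993). The rdd value was called without rdd YC4-R4 replicate 1, at -0.20 (edgeR, adjusted p = 0.0121), and over all alternatives its adjusted p ran from 0.0121 to 0.533. The interaction was -0.05 ± 0.08, with a 95% interval from -0.22 to 0.12 (edgeR, adjusted p = 0.711). A close copy, EDS1B (AT3G48080), lies beside EDS1, and reads may be split between them. EDS1B was higher in rdd, at 3.22 ± 0.29 and 2.78 ± 0.52 CPM in Col-0 control and Col-0 YC4-R4 and 5.27 ± 0.81 and 5.20 ± 0.34 CPM in rdd. With the counts of both genes summed, a setting added after seeing the data, the difference between rdd and Col-0 was -0.39 and -0.41 in the 2 soils (edgeR, adjusted p = 5.16e-07 and 3.73e-07).

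PAD4 (AT3G52430, chromosome 3, 19431095 to 19434450) stood at 22.9, 21.0 and 25.1 CPM in Col-0 control and at 22.5, 20.1 and 20.4 CPM in Col-0 with YC4-R4. It stood at 16.1, 19.3 and 16.4 CPM in rdd control and at 13.3, 11.96 and 12.02 CPM in rdd with YC4-R4. The rdd libraries again lie below those of Col-0, and the 2 rdd groups are apart from each other. PAD4 was lower in rdd at -0.41 ± 0.08 in control soil and -0.76 ± 0.09 in YC4-R4 soil (edgeR, adjusted p = 1.1e-04 and 9.1e-09). It fell with YC4-R4 in rdd by 0.48 ± 0.09 (edgeR, adjusted p = 5.0e-05) and differed by -0.13 ± 0.08 in Col-0 (edgeR, adjusted p = 0.248). The interaction was -0.36 ± 0.12 (edgeR, adjusted p = 0.0224). It was no longer called with DESeq2 (adjusted p = 0.0590), nor without Col-0 control replicate 2, Col-0 YC4-R4 replicate 1, replicate 2 of rdd control or replicate 3 of rdd with YC4-R4 (edgeR, adjusted p = 0.0772, 0.0838, 0.117 and 0.0544), with a range of 0.00959 to 0.117.

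Of the 3 receptors, NPR3 moved most. NPR3 (AT5G45110, chromosome 5, 18228768 to 18231588) stood at 105, 96.9 and 101 CPM in Col-0 control and at 49.4, 48.9 and 51.1 CPM in Col-0 with YC4-R4. It stood at 58.3, 58.8 and 62.7 CPM in rdd control and at 41.5, 38.2 and 40.3 CPM in rdd with YC4-R4. No groups overlap, and the order runs from Col-0 control through rdd control and Col-0 YC4-R4 to rdd YC4-R4. NPR3 fell with YC4-R4 by 1.02 ± 0.05 in Col-0 and by 0.58 ± 0.05 in rdd (edgeR, adjusted p = 4.5e-19 and 1.6e-11). It was below Col-0 in rdd at -0.76 ± 0.05 in control soil and -0.32 ± 0.05 in YC4-R4 soil (edgeR, adjusted p = 8.5e-16 and 1.2e-05). The YC4-R4 effect differed between genotypes by 0.44 ± 0.07 (edgeR, adjusted p = 6.4e-06).

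NPR1 (AT1G64280, chromosome 1, 23852748 to 23855658), the co-activator, moved by small amounts and mainly with the soil. It ranged from 46.5 to 48.1 CPM in Col-0 control, 41.5 to 43.5 CPM in Col-0 with YC4-R4, 50.7 to 51.9 CPM in rdd control and 41.0 to 42.0 CPM in rdd with YC4-R4. Both YC4-R4 groups lie below both control groups and overlap each other. NPR1 fell with YC4-R4 by 0.17 ± 0.05 in Col-0 and by 0.30 ± 0.05 in rdd (edgeR, adjusted p = 0.00787 and 7.0e-06). The genotypes differed by 0.10 ± 0.05 in control soil and -0.03 ± 0.05 in YC4-R4 soil (edgeR, adjusted p = 0.0846 and 0.751). The interaction was -0.13 ± 0.07 (edgeR, adjusted p = 0.171). NPR1 shares 38 bases with AT1G64270, which had 10.8 to 13.1 CPM as group means, and 214 bases with AT1G08667, which has no row in the count table.

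NPR4 (AT4G19660, chromosome 4, 10696266 to 10698811), the other co-repressor, stayed within 33.2 to 40.9 CPM in all libraries. Its libraries ranged from 34.4 to 36.9 CPM in Col-0 control, 35.6 to 36.7 CPM in Col-0 with YC4-R4, 33.2 to 36.6 CPM in rdd control and 37.5 to 40.9 CPM in rdd with YC4-R4. Only the last group is clear of the others. NPR4 was higher with YC4-R4 in rdd, at 0.18 ± 0.06 (edgeR, adjusted p = 0.0117), but not without replicate 1 of rdd control (adjusted p = 0.0645) or replicate 2 of rdd with YC4-R4 (0.0508), in a range of 0.00469 to 0.0645. In Col-0 the difference was 0.02 ± 0.06, with a 95% interval from -0.10 to 0.14 (edgeR, adjusted p = 0.826). The interaction was 0.16 ± 0.08 (edgeR, adjusted p = 0.134), so that a difference of NPR4 between the genotypes in its response was not shown.

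Between genes, levels are compared per length, as CPM per kilobase of annotated exon. In Col-0 control NPR3 was highest at 38.0 ± 1.60, followed by EDS1 at 20.6 ± 0.92, CBP60G at 20.2 ± 0.55, NPR1 at 18.2 ± 0.34, NPR4 at 14.96 ± 0.54, SARD1 at 12.9 ± 0.11 and PAD4 at 10.2 ± 0.91 CPM per kilobase. The synthesis genes were lowest, with EDS5 at 6.47 ± 0.72, ICS1 at 5.23 ± 0.40 and PBS3 at 1.35 ± 0.21 CPM per kilobase. EDS1 and CBP60G differ there by less than the SD of EDS1. In rdd control the level of CBP60G per length, 4.56 ± 0.16, was below that of ICS1, 5.09 ± 0.17, and in Col-0 with YC4-R4 it stood at 6.18 ± 0.42 beside ICS1 at 5.69 ± 0.55 CPM per kilobase. In rdd with YC4-R4 NPR4 led at 16.6 ± 0.74, beside NPR1 at 15.9 ± 0.19 and NPR3 at 15.05 ± 0.62 CPM per kilobase.

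The genes whose pattern was most like that of each gene were found among 18138 genes, by Pearson correlation of log2 CPM over the 12 libraries. These correlations describe 4 groups of 3 libraries and carry no test. For CBP60G they were AT1G20823, a RING/U-box protein gene (0.995), the transcription factor gene NAC036 (0.994) and TPPE (0.991). For SARD1 they were AT1G66090 and AT1G72900, annotated with a TIR domain as found in immune receptors (0.987 and 0.986), and SR45a, an RNA-binding protein gene (0.986). For NPR3 they were AT1G76600 (0.996), the helper immune receptor gene ADR1-L2 (0.995) and the syntaxin gene SYP122 (0.990). PAD4 was most like AT1G56660 (0.974), EDS1 like AT1G78070 (0.976), NPR1 like AT2G31800 (0.986) and PBS3 like RPL9 (0.967). EDS5 was most like AT1G18210, annotated as a calcium-binding EF-hand protein (0.953). The closest genes to ICS1 and NPR4, UBA 2 (0.941) and AT1G55840 (0.917), had lower values than those of the other 8, beside the narrow range of ICS1 and NPR4 over the libraries.

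The wider pathway was read from a list of 54 other genes, of which 52 were tested and DLO2 and BSMT1 had too few counts. That list, too, was chosen with earlier results of these data known. With YC4-R4 in Col-0, 6 of the 52 were higher and 14 lower, against 12.9% and 16.9% of all tested genes. In rdd 12 were higher and 14 lower, against 15.1% and 17.1% of all genes. For rdd against Col-0 in control soil 10 were higher and 19 lower, against 20.9% and 23.0% of all genes. In YC4-R4 soil 10 were higher, or 6 without replicate 1 of either Col-0 or rdd with YC4-R4, and 12 lower, against 14.3% and 14.4% of all genes. The interaction was higher for 12 and lower for 4, against 16.2% and 14.4% of all genes. The medians of the tested list genes lay between -0.09 and 0.02 in the 5 comparisons, close to those of all tested genes.

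Of the 8 output genes, YC4-R4 soil had 3 higher and 3 lower in Col-0 (12.9% and 16.9% of all tested genes), and 4 were higher and 3 lower in rdd (15.1% and 17.1%). WRKY70, a transcription factor gene that acts downstream of NPR1, was also highest in Col-0 control. The mean there was 218 ± 2.43 CPM, against 46.2 ± 1.02 CPM in Col-0 with YC4-R4, 39.4 ± 4.91 CPM in rdd control and 48.3 ± 4.89 CPM in rdd with YC4-R4. Col-0 control was high and the others low, with -2.24 ± 0.06 for YC4-R4 in Col-0 and -2.46 ± 0.06 for rdd against Col-0 in control soil (edgeR, adjusted p = 5.8e-27 and 4.6e-28). WRKY54, its close relative, had an interaction of 1.63 ± 0.13, and that of WRKY70 was 2.52 ± 0.09 (edgeR, adjusted p = 1.9e-12 and 9.2e-23). In the same order of groups WRKY54 stood at 20.1 ± 1.25, 10.8 ± 1.04, 10.1 ± 1.14 and 16.6 ± 0.82 CPM. In rdd both genes were higher with YC4-R4 than in control soil, with no overlap of libraries. WRKY70 ranged from 33.9 to 43.4 CPM in rdd control and from 44.3 to 53.8 CPM in rdd with YC4-R4. WRKY54 ranged from 8.97 to 11.3 CPM and from 15.9 to 17.5 CPM in the same groups. WRKY18, which encodes a WRKY factor induced by salicylic acid, went another way. It was at 74.6 ± 1.09 CPM in Col-0 control and 149 ± 3.70 CPM in Col-0 with YC4-R4, but at 186 ± 10.002 CPM in rdd control and 45.5 ± 3.94 CPM in rdd with YC4-R4. Its YC4-R4 effect was 1.00 ± 0.05 in Col-0 and -2.03 ± 0.05 in rdd, an interaction of -3.02 ± 0.07 (edgeR, adjusted p = 6.5e-19, 2.4e-27 and 5.4e-28). The 2 genotypes differed in it by 1.32 ± 0.05 in control soil and -1.71 ± 0.05 in YC4-R4 soil (edgeR, adjusted p = 8.1e-23 and 5.8e-25). The pathogenesis-related glucanase gene PR2 rose with YC4-R4 in both, by 1.92 ± 0.12 in Col-0 and 2.65 ± 0.12 in rdd (edgeR, adjusted p = 2.0e-15 and 4.4e-19). PR5 rose by 1.63 ± 0.13 and 1.49 ± 0.13 (edgeR, adjusted p = 2.2e-12 and 1.2e-11). PR1, the common marker gene of salicylic acid responses, was low, at 0.338 to 0.758 CPM as group means. It differed by 0.01 ± 0.45 with YC4-R4 in Col-0 and was lower in rdd, at -1.17 ± 0.44 (edgeR, adjusted p = 0.985 and 0.0410). The latter call was lost under 7 of 17 alternatives, among them DESeq2 (adjusted p = 0.121), no filter on low counts (edgeR, 0.0591) and leaving out replicates 2 or 3 of rdd control or any replicate of rdd with YC4-R4 (0.166, 0.0661, 0.0679, 0.0828 and 0.0894), in a range of 0.0293 to 0.166. The glutaredoxin gene GRXC9 fell in both genotypes, at -0.68 ± 0.15 in Col-0 and -1.10 ± 0.16 in rdd (edgeR, adjusted p = 7.1e-04 and 1.1e-06). PR1, GRXC9, PR5 and the Col-0 value of PR2 were picked out after their values were seen.

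Around the EDS1 node, 6 of 8 other genes were lower with YC4-R4 in Col-0 and 4 of 8 in rdd, against 16.9% and 17.1% of all tested genes. The helper receptor gene ADR1-L2 went from 109 ± 1.54 to 58.0 ± 1.23 CPM in Col-0, at -0.91 ± 0.05 (edgeR, adjusted p = 1.6e-18). ADR1, picked out after its values were seen, was below Col-0 in rdd in control soil, at 9.32 ± 0.95 against 21.2 ± 1.17 CPM (log2 -1.17 ± 0.09; edgeR, adjusted p = 2.5e-13). It fell with YC4-R4 in Col-0 by 0.85 ± 0.09, and its interaction was 0.78 ± 0.14 (edgeR, adjusted p = 5.7e-10 and 1.9e-05). Among the synthesis regulators CBP60A, a relative of CBP60G known as a repressor of immunity, was lower in rdd in both soils, at -0.995 ± 0.055 and -0.92 ± 0.06 (edgeR, adjusted p = 2.9e-17 and 4.9e-15). CBP60A also fell with YC4-R4, at -0.57 ± 0.05 in Col-0 and -0.50 ± 0.06 in rdd (edgeR, adjusted p = 7.0e-11 and 4.3e-08). These 2 values were picked out after they were seen. Its interaction was 0.07 ± 0.08 (edgeR, adjusted p = 0.564).

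Of the 7 other synthesis genes, 2 fell with YC4-R4 in rdd, where 17.1% of all tested genes were lower. PAL3, a member of the phenylalanine route to salicylic acid, went from 32.1 ± 0.99 to 14.5 ± 1.08 CPM there, at -1.15 ± 0.08 (edgeR, adjusted p = 8.5e-15). PAL3 also fell with YC4-R4 in Col-0, at -0.65 ± 0.08 (edgeR, adjusted p = 1e-07), and its interaction was -0.50 ± 0.11 (edgeR, adjusted p = 7.6e-04). In control soil it was higher in rdd than in Col-0 by 0.67 ± 0.07 (edgeR, adjusted p = 1.6e-09). The PAL3 values other than its fall in rdd were picked out after they were seen. Of the 8 tested turnover genes, 3 were higher in rdd than in Col-0 in YC4-R4 soil, where 14.3% of all tested genes were higher. They include UGT74F2, which attaches glucose to salicylic acid, at 81.0 ± 1.199 against 57.7 ± 0.59 CPM (log2 0.49 ± 0.05; edgeR, adjusted p = 1.1e-10). UGT74F2 was higher in rdd in control soil as well, at 0.60 ± 0.05 (edgeR, adjusted p = 3.1e-13). Its interaction was -0.11 ± 0.07 (edgeR, adjusted p = 0.214). The control soil and interaction values were picked out after they were seen. Of the 12 partners of the NPR proteins, 3 were higher and 3 lower in rdd in control soil, against 20.9% and 23.0% of all tested genes. NIMIN1, which encodes an inhibitor that binds NPR1, was among the lower, at 0.752 ± 0.018 against 2.32 ± 0.35 CPM (log2 -1.61 ± 0.31; edgeR, adjusted p = 5.2e-05). NIMIN1 had few counts, 11 to 14 per library in rdd control and 35 to 45 in Col-0 control. Its mean log2 CPM of 0.70 lies below the minimum of 1 in the naming rule. Its interaction was 1.63 ± 0.43 (edgeR, adjusted p = 0.00342), and NIMIN1 was picked out after its values were seen. FMO1, the last enzyme of N-hydroxypipecolic acid synthesis, was also picked out so. It was lower in rdd in control soil, at 1.79 ± 0.37 against 3.28 ± 0.30 CPM (log2 -0.88 ± 0.20; edgeR, adjusted p = 5.4e-04).

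**Figure D5:**
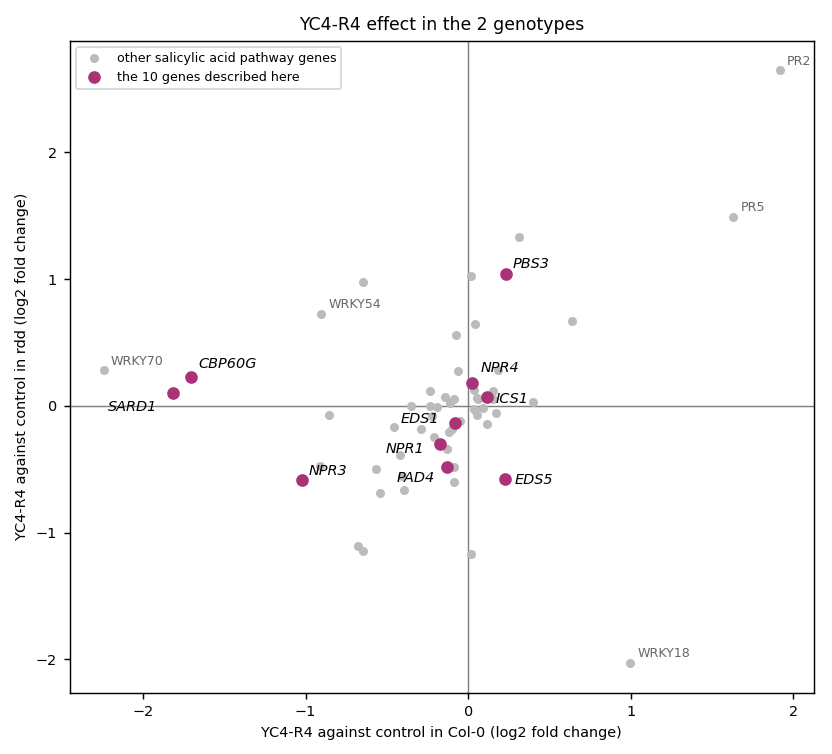
Log2 fold change with YC4-R4 in rdd (vertical axis) against that in Col-0 (horizontal axis), for the 10 genes (purple, named) and the 52 tested other pathway genes (grey, 5 of them named). CBP60G and SARD1 lie at -1.71 and -1.81 in Col-0 and near 0 in rdd, PBS3 lies high in rdd alone, and NPR3 lies low in both.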

How the data were processed

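Counts per gene were deposited by the authors, 1 column per library, as whole numbers without normalization. Per the submitters' processing notes HTSeq 0.9.1, HISAT2 2.1.0 and Trimmomatic 0.36 were used, with the build TAIR10. The libraries were made with a directional kit, per the labels' protocols, but the sources used here give neither the annotation release nor whether the counting used strand. Overlapping genes and close copies are therefore uncertain. Libraries were grouped by their titles.

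From the counts, filterByExpr kept 20651 of 33602 genes, and edgeR 4.0.16 in R 4.3.3 fitted 1 mean per group to all 12 libraries after TMM scaling. Its quasi-likelihood test had 8 residual degrees of freedom, to which p-values and intervals add prior degrees of freedom estimated across genes. It was adjusted by Benjamini-Hochberg over all tested genes. The test was also run on simulated data, with an outcome that is not given here. The simulation gave all groups the same spread and changed Col-0 YC4-R4 alone. It therefore did not cover the larger spread of rdd YC4-R4. Log2 CPM used a prior count of 2. DESeq2 1.42.0, edgeR with RLE size factors, no filter, the replicate number as a block, only the compared groups, and each library left out were alternatives. Left-out fits kept the same genes and 1 spread for all groups. Every replicate pair differed by more than sampling noise, with a chi-square per degree of freedom of 1.60 or more. The p-values set a difference against the spread between libraries within groups, pooled over all groups and moderated across genes. They do not use the larger spread of rdd YC4-R4 on its own.

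Symbols, coordinates and start regions come from RefSeq's TAIR10.1 annotation and genome, whose gene models may differ from those counted. The 10 genes and all lists were chosen with earlier results of these data known. Of the other pathway genes, the rule named the 3 with the smallest adjusted p in each comparison if called and at a mean log2 CPM of at least 1.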

Additional observations from a re-analysis of the deposited data

Results flagged for a closer look

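The effect of YC4-R4 differed between the genotypes, by the interaction test, for 6 of the 10 genes, where 30.6% of all tested genes were called. Taken as the log2 effect in rdd less the one in Col-0, the difference was 1.93 for CBP60G and 1.92 for SARD1, which fell in Col-0 and not in rdd. It was 0.81 for PBS3, higher in rdd, -0.81 for EDS5, lower in rdd, and 0.44 for NPR3, lower in both. For PAD4 it was -0.36. Without PAD4, which was not called with DESeq2 or in 4 fits that each left out a library, the count is 5.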

How the results depend on the processing

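Under each alternative the count of the 10 genes called stayed within 1.5 times its value, as did that of all genes. It ran from 4 to 5 for YC4-R4 in Col-0, 5 to 7 for YC4-R4 in rdd, 4 to 5 between genotypes in YC4-R4 soil and 5 to 6 for the interaction, and stayed at 6 between genotypes in control soil. The count of genes higher with YC4-R4 in rdd fell from 3 to 1 without replicate 1 of rdd control, and likewise without replicate 2 of rdd with YC4-R4. The count lower by interaction fell from 2 to 1 where PAD4 was lost. That of the other pathway genes higher in rdd in YC4-R4 soil fell from 10 to 6 without Col-0 YC4-R4 replicate 1 or rdd YC4-R4 replicate 1. Of 50 gene results, 38 kept call and direction in every alternative. Calls lost for CBP60G, NPR4 and PAD4 are given with them, and CBP60G in rdd was also lost with no filter (edgeR, adjusted p = 0.0581) and with the compared groups alone (0.0839). The difference of CBP60G between genotypes in YC4-R4 soil was called with RLE size factors (0.0447), without Col-0 YC4-R4 replicate 3 (0.0408) and without rdd YC4-R4 replicate 2 (0.0280), and that of NPR4 without rdd YC4-R4 replicate 1 (0.0360). Reversals touched only results that were not called. With 1 library left out in turn, ICS1 between genotypes in control soil ran from -0.10 to 0.0029, the latter without Col-0 control replicate 1. Its interaction ran from -0.095 to 0.033, with 0.012 and 0.033 without Col-0 control replicate 3 and Col-0 YC4-R4 replicate 3. NPR4 with YC4-R4 in Col-0 ran from -0.0011, without Col-0 control replicate 3, to 0.052, and PBS3 from -0.11 to 0.027 between genotypes in YC4-R4 soil without Col-0 YC4-R4 replicate 1. The EDS1 interaction ran from -0.12 to 0.026, the latter without rdd YC4-R4 replicate 2. PR1 with YC4-R4 in Col-0 ran from -0.24 to 0.45, with -0.19, -0.060, -0.24 and -0.24 without replicates 1 and 2 of Col-0 control and 2 and 3 of Col-0 with YC4-R4. The cause was not tested. The numbers of the titles did not pair the libraries: deviations of same-numbered libraries from their group means correlated at -0.051 to 0.026. With the replicate block the CBP60G difference in rdd was 0.23 (edgeR, adjusted p = 0.0524), and 6 genes were called there. PBS3, at 26 to 89 counts per library, is the gene most limited by depth.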
